A study of Capra hircus with 10 samples.

Results

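The genes described here encode the ephrins, the Eph receptors, the semaphorins of classes 3 to 7, the plexins and the neuropilins, families named for guiding growing nerve fibres and also active in blood vessels. Members were all protein-coding gene symbols of the deposited transcript table that begin with EPHA, EPHB, EFNA, EFNB, SEMA3 to SEMA7 or PLXNA to PLXND and carry a number or letter of these families, together with NRP1 and NRP2. This gave 52 of 20587 protein-coding symbols, from 129 of 43766 protein-coding transcripts. There were 5 A-type ephrins, 3 B-type ephrins, 9 EphA receptors, 5 EphB receptors, 7 class 3 semaphorins, 13 semaphorins of classes 4 to 7, 8 plexins and 2 neuropilins. PLXNB2 was not analysed here.

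The samples were whole ovaries of Anhui white goats that had been collected at a slaughterhouse, 5 taken in the luteal and 5 in the follicular phase of the estrous cycle, and no treatment is named for either group. Ribosomal RNA was removed from each ovary's RNA before a strand-specific library was made, and RNA levels are given as FPKM, which counts sequenced fragments relative to transcript length and library size and was summed here over the transcripts of a gene. The sources used here give neither the age of the animals, nor how the phase of an ovary was judged, nor whether every ovary came from a different goat, so p-values measure only the spread between these 10 ovaries. In whole ovaries, fewer cells of a type and less RNA per cell cannot be told apart.

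Ephrins are membrane-bound ligands, A-type ephrins through a lipid anchor and B-type ephrins through a transmembrane segment with a cytoplasmic tail, so that an ephrin and an Eph receptor tyrosine kinase meet where cells touch and can signal into both cells. Class 3 semaphorins are secreted and reach plexins mostly through neuropilins, whereas most semaphorins of classes 4 to 7 are held in the membrane and bind plexins directly. Plexins act on small GTPases and through them on the cytoskeleton and on adhesion. In vessels, ephrin-B2 and EphB4 are known as arterial and venous molecules, and the neuropilins also bind vascular endothelial growth factors. The ovary is among the few adult organs in which vessels grow with every cycle, most of all in the forming corpus luteum.

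Most markers of luteal and follicular cells differed in the direction of the labelled phase. By the threshold given below, 15.9% of all tested genes were higher in the luteal and 27.8% in the follicular phase. All 7 markers of corpus luteum and steroidogenic cells in the table were higher in the luteal phase, and their summed level was 6330 to 8521 FPKM in luteal phase ovaries against 168.7 to 223.2 FPKM in follicular phase ovaries. All 5 theca cell markers, 5 of 8 granulosa cell markers and 6 of 7 oocyte markers (all but ZP4) were higher in the follicular phase. The granulosa markers CYP19A1, INHA and INHBA overlapped between the phases and were not called (adjusted p = 0.174, 0.149 and 0.162 in limma). Endothelial markers also differed, with 10 of 11 higher in the luteal phase (all but CLDN5) and a summed level of 243.1 to 308.6 FPKM against 153.2 to 187.3 FPKM. Of 5 lymphatic markers 4 were higher in the luteal phase (all but PROX1), with a sum of 218.0 to 302.9 FPKM against 107.6 to 128.2 FPKM. All FPKM of an ovary summed to 452508 to 503276 in luteal ovaries and to 492324 to 540124 in follicular ovaries. Over all tested genes the median log2 fold change was -0.14, and every fold change below is luteal minus follicular on the log2(FPKM + 0.1) scale, which understates the change of low genes.

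The guidance genes split between the phases rather than moving together. Ovaries in the luteal phase had more RNA of ephrins EFNA1, EFNB1 and EFNB2, of the receptors EPHA2, NRP1, PLXND1 and PLXNB3 and of the semaphorins SEMA3A, SEMA3F, SEMA3G, SEMA5B and SEMA6B. Ovaries in the follicular phase had more RNA of the other 5 ephrins, of 4 of the 5 EphB receptors, of NRP2 and PLXNA1 and of SEMA4B, SEMA4D, SEMA4F and SEMA6C. A gene counted as called when its adjusted p from limma, by Benjamini-Hochberg over all 15359 genes tested, was under 0.05. Of the 52 members, 48 had at least 0.1 FPKM in at least 5 ovaries and were tested, and 27 of these were called, or 56.2% against 43.7% of all tested genes. The 12 members higher in the luteal phase made up 25.0% of those tested against a background of 15.9%, and the 15 members higher in the follicular phase made up 31.2% against 27.8%, a share near the background. Luteal calls were 44.4% of the members' calls and 36.3% of all calls, and in TPM, which gives each ovary the same total, they were 52.2% and 52.5%. The median log2 fold change of the tested members was -0.16, close to the -0.14 of all genes. Luteal and follicular FPKM ranges were apart for 22 tested members, 10 higher in the luteal and 12 in the follicular phase, where 28.4% of all tested genes had no overlap. PLXNB3 passed the filter through the luteal phase, with 1 of 5 follicular phase ovaries at 0.1 FPKM or more, and SEMA3E passed through the follicular phase, with 1 of 5 luteal phase ovaries.

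**Figure D1:**
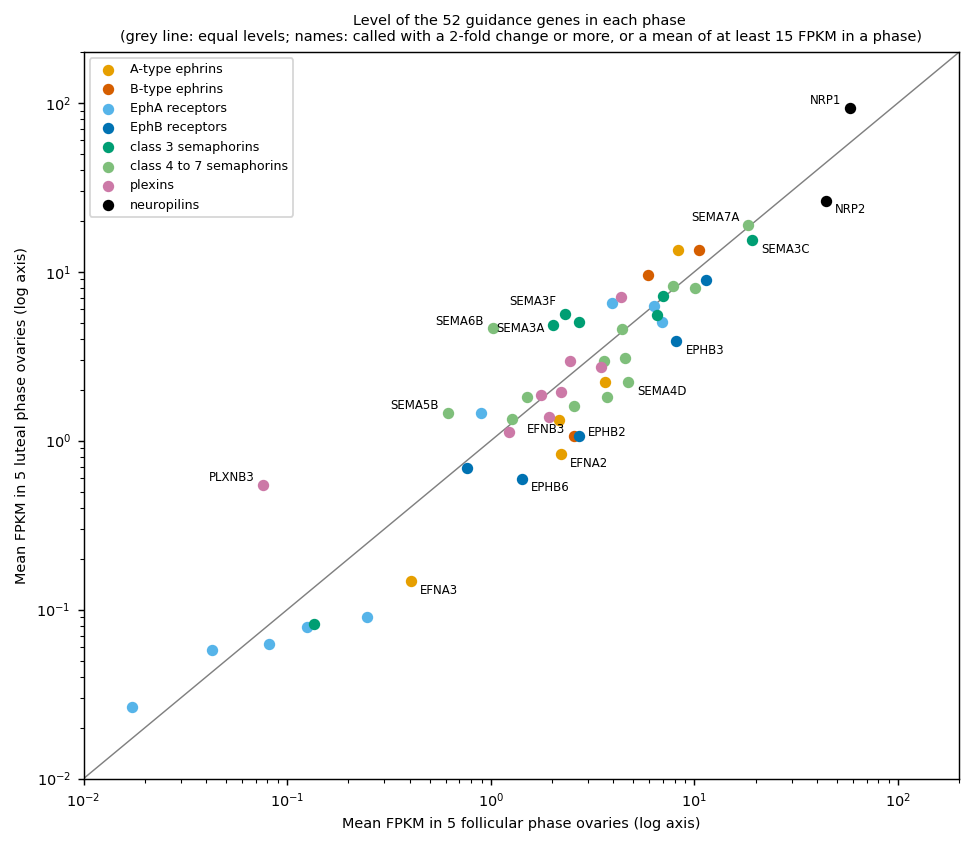
Mean FPKM of each of the 52 guidance genes in 5 luteal phase ovaries (vertical, log axis) against 5 follicular phase ovaries (horizontal, log axis), coloured by family, with the line of equal levels in grey. NRP1 lies above the line and NRP2 below it at the upper right, PLXNB3 stands farthest above the line, and SEMA7A lies on it.

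NRP1 and NRP2 were the 2 most abundant members in either phase, and the neuropilins held 31.4 to 40.6% of the summed FPKM of all guidance genes in luteal phase ovaries and 32.6 to 35.4% in follicular phase ovaries. The sum over all members was 283.0 to 343.9 FPKM in the luteal phase against 267.8 to 325.1 FPKM in the follicular phase, so the ranges overlapped although 21 of the 27 called members had no overlap. Among the families, the summed level of the EphB receptors was lower in the luteal phase without overlap, at 12.8 to 17.9 FPKM against 21.0 to 28.5 FPKM. The summed B-type ephrins, their main ligands, were higher without overlap, at 20.4 to 27.8 FPKM against 16.6 to 20.1 FPKM. The sums of A-type ephrins, EphA receptors, neuropilins, plexins and both semaphorin groups overlapped between the phases.

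All 8 ephrins were called, against 43.7% of all tested genes. Of them 3 were luteal-high (37.5% against 15.9%) and 5 follicular-high (62.5% against 27.8%). In the values that follow, the 5 numbers of a phase are given in the order of its ovaries 1 to 5. EFNA1, an A-type ephrin of endothelial and epithelial cells that binds EphA2, was at 15.5, 11.2, 12.5, 13.5 and 14.6 FPKM in the luteal phase against 7.40, 9.93, 9.41, 6.94 and 7.83 FPKM in the follicular phase. Every luteal phase ovary lay above every follicular phase ovary, for a log2 fold change of 0.70 ± 0.12 (SE, as in all fold changes below, with 5 ovaries per phase) and an adjusted p of 0.00108 in limma. The remaining A-type ephrins went the other way. EFNA2 was at 1.04, 1.04, 0.620, 0.591 and 0.855 FPKM in the luteal phase against 3.07, 1.63, 2.11, 2.30 and 1.89 FPKM in the follicular phase (log2 fold change -1.31 ± 0.21, adjusted p = 0.000589). EFNA4 was at 2.34, 1.83, 2.33, 2.02 and 2.55 FPKM against 3.31, 2.83, 4.12, 3.66 and 4.33 FPKM (-0.69 ± 0.14, adjusted p = 0.00285). Neither gene overlapped between the phases, and the luteal values of EFNA2 all stayed near or below 1 FPKM.

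EFNA3 and EFNA5 were the other A-type ephrins with a higher level in the follicular phase. EFNA3, the least abundant ephrin, was at 0.132, 0.102, 0.168, 0.145 and 0.190 FPKM in luteal phase ovaries and at 0.256, 0.463, 0.404, 0.451 and 0.444 FPKM in follicular phase ovaries, with a log2 fold change of -1.02 ± 0.19 (adjusted p = 0.00172). EFNA5, known from the mapping of nerve fibres in the visual system, was at 1.40, 1.19, 1.54, 1.3 and 1.22 FPKM against 2.01, 1.80, 2.09, 1.80 and 3.13 FPKM (-0.64 ± 0.16, adjusted p = 0.00938). No luteal value of either gene reached the lowest follicular value. When the most abundant transcript alone stood for each gene, the adjusted p was 0.117 for EFNA3 (fold change -0.80) and 0.0777 for EFNA5 (fold change -0.59), while over all alternatives it ran from 0.000573 to 0.117 and from 0.00693 to 0.0777. EFNA1, EFNA3 and EFNA4 follow each other with no coding gene between them in RefSeq's gene order on the goat assembly ARS1.2, yet EFNA1 was higher and its neighbours were lower in the luteal phase. EFNA1 held 72.8 to 77.0% of the summed A-type ephrin FPKM in luteal phase ovaries and 44.4 to 59.6% in follicular phase ovaries.

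Of the B-type ephrins, EFNB1 and EFNB2 were higher in the luteal phase and EFNB3 was lower. EFNB2, the ephrin that marks arterial endothelium, was at 10.2, 10.5, 7.68, 8.43 and 10.8 FPKM in the luteal phase against 6.40, 5.48, 6.12, 5.69 and 5.84 FPKM in the follicular phase, a log2 fold change of 0.67 ± 0.11 (adjusted p = 0.000644). EFNB1 was at 16.4, 14.1, 12.0, 11.9 and 12.8 FPKM against 10.9, 11.7, 10.8, 11.0 and 8.30 FPKM (0.35 ± 0.12, adjusted p = 0.0315). The lowest luteal value of EFNB1 was only just above its highest follicular value, and the call was lost without luteal phase ovary 1 (adjusted p = 0.069), without luteal phase ovary 2 (adjusted p = 0.0646) and without follicular phase ovary 5 (adjusted p = 0.0636), within a range of 0.0117 to 0.069 over the alternatives. In the fits that lost the EFNB1 call its fold change was 0.26 to 0.33. EFNB3, in contrast, was at 1.18, 1.18, 0.720, 1.21 and 1.00 FPKM in the luteal phase against 2.40, 2.89, 2.88, 2.23 and 2.46 FPKM in the follicular phase (-1.22 ± 0.16, adjusted p = 0.000173). Each follicular phase ovary lay well above each luteal phase ovary.

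Of the 5 EphB receptors, 4 were higher in the follicular phase (80.0% against 27.8% of all tested genes) and none in the luteal phase. Of the 5 EphA receptors tested, EPHA2 was higher in the luteal phase (20.0% against 15.9%) and no other was called, though EPHA4 and EPHA5 had fold changes in the EphB direction. The difference between both classes was not tested. EPHB2 was at 1.16, 0.941, 1.10, 1.20 and 0.905 FPKM in luteal phase ovaries and at 2.99, 2.43, 2.72, 2.44 and 2.94 FPKM in follicular phase ovaries, with the smallest adjusted p of the Eph receptors (log2 fold change -1.27 ± 0.13, adjusted p = 3.01e-05). EPHB3, which with EPHB2 is known for sorting cells along the intestinal crypt, was at 5.81, 3.42, 4.54, 2.66 and 3.01 FPKM against 9.66, 7.07, 9.21, 6.54 and 8.27 FPKM (-1.09 ± 0.20, adjusted p = 0.0015). Both genes had no overlap between the phases. With the most abundant transcript alone, the fold change of EPHB2 was -0.82 and its adjusted p 0.0562, against a range of 1.8e-05 to 0.0562 over its alternatives.

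EPHB4, the receptor of ephrin-B2 on venous endothelium, was the most abundant EphB receptor. It was at 9.59, 7.54, 9.66, 8.27 and 9.38 FPKM in the luteal phase against 11.9, 10.3, 13.8, 10.6 and 10.5 FPKM in the follicular phase, a small difference without overlap (log2 fold change -0.36 ± 0.11, adjusted p = 0.0177). After conversion to TPM its fold change was -0.26 and its adjusted p 0.135 (range 0.00915 to 0.135 over the alternatives). EPHB6, a receptor without kinase activity, was at 0.316, 0.224, 1.03, 0.551 and 0.852 FPKM against 1.25, 0.845, 1.93, 0.695 and 2.37 FPKM (-1.15 ± 0.40, adjusted p = 0.0384), with overlapping phases. The EPHB6 call was lost in each of 6 fits that left out an ovary (luteal phase 1, 2 or 4, or follicular phase 1, 3 or 5), at adjusted p-values of 0.0653 to 0.0877, within a range of 0.00741 to 0.0877 over all alternatives. It was also lost without a filter (adjusted p = 0.055), in TPM (0.0682) and with the most abundant transcript alone (0.0612). The EPHB6 fold change in the fits that lost the call was -0.91 to -1.17. EPHB1 was not called and lay at 0.524 to 0.981 FPKM in the luteal and 0.612 to 0.900 FPKM in the follicular phase (log2 fold change -0.15 ± 0.19).

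Among the EphA receptors, EPHA2 was at 5.20, 6.39, 5.84, 6.99 and 8.29 FPKM in luteal phase ovaries and at 4.14, 4.42, 4.59, 4.12 and 2.47 FPKM in follicular phase ovaries, above in each of them (log2 fold change 0.73 ± 0.18, adjusted p = 0.00719). EPHA2 is the receptor best known to bind EFNA1, which changed in the same direction. The other EphA receptors of some abundance were EPHA4 and EPHA7. EPHA4 was at 4.06 to 6.13 FPKM in the luteal and 4.78 to 9.49 FPKM in the follicular phase (-0.42 ± 0.18, adjusted p = 0.0778), and without follicular phase ovary 4 it was called lower in the luteal phase (adjusted p = 0.0266, range over alternatives 0.0266 to 0.211). EPHA7 varied nearly as much within a phase as over both, at 3.65 to 9.98 FPKM in the luteal and 3.23 to 10.1 FPKM in the follicular phase (-0.01 ± 0.30, adjusted p = 0.985). EPHA3 was at 0.720 to 1.78 FPKM in the luteal and 0.367 to 1.37 FPKM in the follicular phase (0.72 ± 0.33, adjusted p = 0.101). Without luteal phase ovary 2, its lowest luteal value, EPHA3 was called higher in the luteal phase (adjusted p = 0.0348, range 0.0158 to 0.202), as it was with quantile normalization (adjusted p = 0.0465). EPHA5 was low at 0.0559 to 0.136 FPKM in the luteal and 0.0968 to 0.614 FPKM in the follicular phase (-0.73 ± 0.32, adjusted p = 0.0885). The other 4 EphA receptors were below the filter and had no test. EPHA1 was at 0.0341 to 0.131 FPKM in the luteal and 0.0587 to 0.205 FPKM in the follicular phase. EPHA6 was at 0.0205 to 0.150 FPKM in the luteal and 0.0233 to 0.150 FPKM in the follicular phase. EPHA8 and EPHA10 did not reach 0.1 FPKM in any follicular phase ovary. EPHA8 was at 0 to 0.0610 FPKM in the luteal and 0 to 0.0549 FPKM in the follicular phase. EPHA10, a receptor without kinase activity, was at 0.0154 to 0.130 FPKM in the luteal and 0.0242 to 0.0678 FPKM in the follicular phase. At such levels a listed 0 does not show that a gene was silent, since the deposited FPKM do not give the depth of each ovary.

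**Figure D2:**
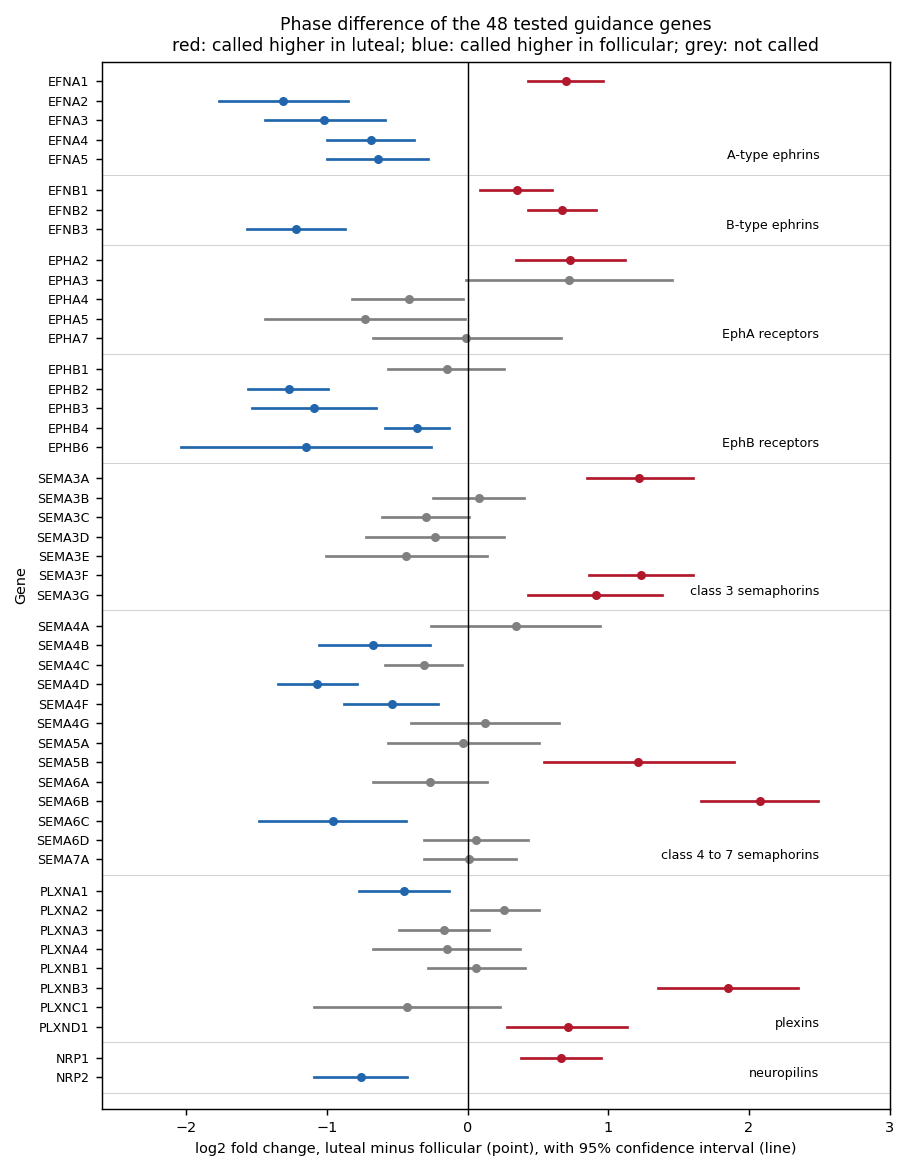
Log2 fold change (luteal minus follicular, on the log2(FPKM + 0.1) scale) of the 48 tested guidance genes by family, as points with lines for the 95% confidence interval, red where called higher in the luteal phase, blue where called higher in the follicular phase and grey where not called. Ephrins and EphB receptors carry mostly coloured points, SEMA6B reaches 2.08, and the EFNA2 point at -1.31 is the lowest.

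Of the 7 class 3 semaphorins, the secreted ligands, 3 were higher in the luteal phase (42.9% against 15.9% of all tested genes) and none in the follicular phase. SEMA3A, the ligand of NRP1 with plexin A receptors, was at 4.00, 3.96, 5.43, 5.87 and 4.90 FPKM in the luteal phase against 1.67, 2.89, 1.91, 1.75 and 1.90 FPKM in the follicular phase (log2 fold change 1.22 ± 0.17, adjusted p = 0.00025). SEMA3F, which binds mainly NRP2, was at 6.98, 6.07, 4.19, 4.50 and 6.44 FPKM against 2.44, 2.90, 2.29, 1.81 and 2.17 FPKM (1.23 ± 0.17, adjusted p = 0.000247). For both genes the lowest luteal value exceeded the highest follicular value, and the mean was more than 2 times as high in the luteal phase. SEMA3G, a semaphorin of endothelial cells, was at 5.35, 3.61, 4.82, 5.75 and 5.66 FPKM against 3.64, 1.73, 2.14, 2.37 and 3.70 FPKM (0.91 ± 0.22, adjusted p = 0.00628), where luteal phase ovary 2 fell below the highest follicular values.

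The other 4 class 3 semaphorins were not called. SEMA3C, the most abundant of the class, was at 13.1 to 18.0 FPKM in the luteal and 14.7 to 25.3 FPKM in the follicular phase (-0.30 ± 0.14, adjusted p = 0.102), and without follicular phase ovary 2 it was called lower in the luteal phase (adjusted p = 0.0332, range over alternatives 0.0217 to 0.325). SEMA3B was at 6.69 to 8.06 FPKM in the luteal and 5.82 to 10.5 FPKM in the follicular phase (0.08 ± 0.15). SEMA3D was at 3.99 to 7.86 FPKM in the luteal and 4.46 to 9.09 FPKM in the follicular phase (-0.23 ± 0.22). The highest value of either gene was in a follicular phase ovary. SEMA3E, the secreted ligand that binds PLXND1 without a neuropilin, was near the filter at 0.0335 to 0.221 FPKM in the luteal and 0.106 to 0.176 FPKM in the follicular phase (-0.44 ± 0.26, adjusted p = 0.194), and without luteal phase ovary 3, its highest value, it was called lower in the luteal phase (adjusted p = 0.0249, range 0.0249 to 0.418). SEMA3E, SEMA3A and SEMA3D follow each other with no coding gene between them in the ARS1.2 annotation, and of these SEMA3A was the called one. SEMA3F lies 3 coding genes from SEMA3B.

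In classes 4 to 7, 2 of 13 semaphorins were higher in luteal phase ovaries (15.4% against 15.9% of all tested genes) and 4 were lower (30.8% against 27.8%), both shares near the background. SEMA6B, a transmembrane ligand of plexin A receptors, had the largest log2 fold change of the tested members with the pseudocount of 0.1. It was at 4.98, 5.80, 3.49, 3.91 and 4.90 FPKM in the luteal phase against 1.16, 1.35, 1.04, 0.826 and 0.736 FPKM in the follicular phase (2.08 ± 0.19, adjusted p = 1.28e-05), so its mean was 4.51 times as high in the luteal phase. SEMA5B was at 1.58, 1.49, 1.57, 0.882 and 1.79 FPKM against 0.622, 0.758, 0.363, 0.272 and 1.07 FPKM (1.21 ± 0.31, adjusted p = 0.00871). Luteal phase ovary 4 overlapped the follicular values of SEMA5B, and with its most abundant transcript alone the fold change was larger at 1.71 but the adjusted p was 0.198 (range 0.00327 to 0.198).

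SEMA4D, the ligand of plexin B1 that is also made by lymphocytes, was at 2.87, 2.06, 1.88, 1.97 and 2.30 FPKM in luteal phase ovaries and at 4.94, 4.58, 4.46, 4.44 and 5.20 FPKM in follicular phase ovaries. The gap between the phases was wider than the spread within either (log2 fold change -1.07 ± 0.13, adjusted p = 9.16e-05). SEMA4B was at 1.90, 1.41, 2.11, 1.24 and 1.34 FPKM against 2.72, 2.12, 2.66, 2.14 and 3.21 FPKM (-0.67 ± 0.18, adjusted p = 0.0113), where the highest luteal and the lowest follicular value nearly met. SEMA6C, a relative of SEMA6B, was at 2.28, 1.3, 1.79, 1.59 and 2.06 FPKM against 5.25, 2.01, 4.32, 3.69 and 3.27 FPKM (-0.96 ± 0.24, adjusted p = 0.00769), with overlap through follicular phase ovary 2. SEMA4F was at 3.62, 2.87, 3.34, 3.01 and 2.49 FPKM against 5.18, 3.32, 5.51, 4.26 and 4.49 FPKM (-0.54 ± 0.15, adjusted p = 0.0137), again with overlap through follicular phase ovary 2. These last 2 calls depended on how transcripts were joined. With the most abundant transcript alone, SEMA6C had a fold change of -0.78 and an adjusted p of 0.238 (range 0.000897 to 0.238), and SEMA4F had a fold change of 0.21 and an adjusted p of 0.872 (range 0.00311 to 0.872). Without transcripts listed at 0 in one ovary and at 1 FPKM or more in another of the same phase, the fold change of SEMA4F was -1.81, larger than with all transcripts, at an adjusted p of 0.0582. SEMA4F was also not called in TPM (adjusted p = 0.0568).

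The other 7 semaphorins of these classes were not called. SEMA7A, a lipid-anchored semaphorin that binds plexin C1 and integrins, was the most abundant semaphorin in the luteal phase. It was at 13.1 to 25.0 FPKM in the luteal and 16.4 to 21.1 FPKM in the follicular phase (0.01 ± 0.15, 95% interval -0.31 to 0.34). SEMA4C was at 6.67 to 8.85 FPKM in the luteal and 8.35 to 11.5 FPKM in the follicular phase (-0.31 ± 0.13, adjusted p = 0.0625), and leaving out follicular phase ovary 2 or 4 made it a call lower in the luteal phase (adjusted p = 0.0399 and 0.0389, range over alternatives 0.01 to 0.285). The other 5 overlapped between the phases. SEMA6D was at 5.69 to 10.1 FPKM in the luteal and 6.81 to 10.6 FPKM in the follicular phase (0.06 ± 0.17). SEMA6A was at 2.34 to 3.96 FPKM in the luteal and 2.65 to 4.63 FPKM in the follicular phase (-0.27 ± 0.19). SEMA5A was at 2.74 to 8.29 FPKM in the luteal and 3.35 to 5.46 FPKM in the follicular phase (-0.03 ± 0.25). The luteal maximum of SEMA5A came from luteal phase ovary 3 at 8.29 FPKM. SEMA4A was at 1.27 to 2.30 FPKM in the luteal and 0.781 to 2.59 FPKM in the follicular phase (0.34 ± 0.27). SEMA4G was at 1.07 to 1.75 FPKM in the luteal and 0.626 to 1.64 FPKM in the follicular phase (0.12 ± 0.24).

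Of the 8 plexins, the semaphorin receptors, PLXND1 and PLXNB3 were higher and PLXNA1 was lower in luteal phase ovaries, so that 37.5% were called against 43.7% of all tested genes. PLXND1, the plexin of endothelial cells and receptor of SEMA3E, was the most abundant plexin and was at 8.74, 6.86, 6.11, 5.83 and 7.72 FPKM in the luteal phase against 4.72, 2.70, 5.94, 3.73 and 4.81 FPKM in the follicular phase (log2 fold change 0.71 ± 0.19, adjusted p = 0.0131). The phases overlapped through luteal phase ovary 4 and follicular phase ovary 3. PLXNB3 was at 0.754, 0.419, 0.371, 0.481 and 0.71 FPKM against 0.0946, 0.111, 0.0593, 0.0327 and 0.0848 FPKM (1.85 ± 0.23, adjusted p = 0.000118). Every luteal phase ovary was more than 3 times as high as the highest follicular phase ovary, but since the follicular values lay around the pseudocount of 0.1 the fold change of PLXNB3 ran from 0.52 with a pseudocount of 1 to 2.72 with one of 0.01. PLXNA1 was at 1.64, 1.42, 1.47, 1.15 and 1.24 FPKM against 2.38, 1.65, 2.11, 1.81 and 1.71 FPKM (-0.45 ± 0.15, adjusted p = 0.0286). The PLXNA1 phases nearly met, and the call was lost without luteal phase ovary 4 or 5 or follicular phase ovary 1 or 3 (adjusted p from 0.0637 to 0.0722), with quantile normalization (0.0511), with the most abundant transcript alone (0.055) and in TPM (0.116), within a range of 0.0165 to 0.116. In these fits the PLXNA1 fold change was -0.36 to -0.45.

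PLXNA2 showed the reverse case of no overlap without a call, at 2.71 to 3.18 FPKM in the luteal and 2.03 to 2.63 FPKM in the follicular phase (0.26 ± 0.11, adjusted p = 0.0729). It became a call with each ovary shifted to a common median (adjusted p = 0.015), with quantile normalization (0.0123) and without the trend in eBayes (0.0376), within a range of 0.0123 to 0.157. PLXNC1, the receptor of SEMA7A, was at 1.62 to 5.37 FPKM in the luteal and 2.45 to 5.28 FPKM in the follicular phase (-0.43 ± 0.30, adjusted p = 0.27), and without luteal phase ovary 3, at 5.37 FPKM far above the other luteal values, it was called lower in the luteal phase (adjusted p = 0.0267, range 0.0267 to 0.495). The other 3 plexins were not called. PLXNA3 was at 1.65 to 2.45 FPKM in the luteal and 1.88 to 2.78 FPKM in the follicular phase (-0.17 ± 0.15). PLXNA4 was at 0.725 to 1.65 FPKM in the luteal and 0.845 to 1.45 FPKM in the follicular phase (-0.15 ± 0.24). PLXNB1, the receptor of SEMA4D, was at 1.53 to 2.28 FPKM in the luteal and 1.42 to 2.01 FPKM in the follicular phase (0.06 ± 0.16).

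The neuropilins moved apart. NRP1, co-receptor of class 3 semaphorins and of VEGFA, was at 74.2, 76.1, 103, 94.4 and 119 FPKM in the luteal phase against 64.0, 50.3, 61.7, 53.3 and 62.0 FPKM in the follicular phase (log2 fold change 0.66 ± 0.13, adjusted p = 0.00218). NRP2, the neuropilin known from veins and lymphatic vessels, was at 29.9, 25.2, 35.0, 20.7 and 20.7 FPKM against 40.4, 38.3, 47.0, 41.7 and 53.0 FPKM (-0.76 ± 0.15, adjusted p = 0.00212). Neither gene overlapped between the phases, and both kept their call in every alternative, each ovary left out in turn included. The sum of the neuropilins did overlap, at 101.4 to 139.4 FPKM against 88.6 to 114.9 FPKM.

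**Figure D3:**
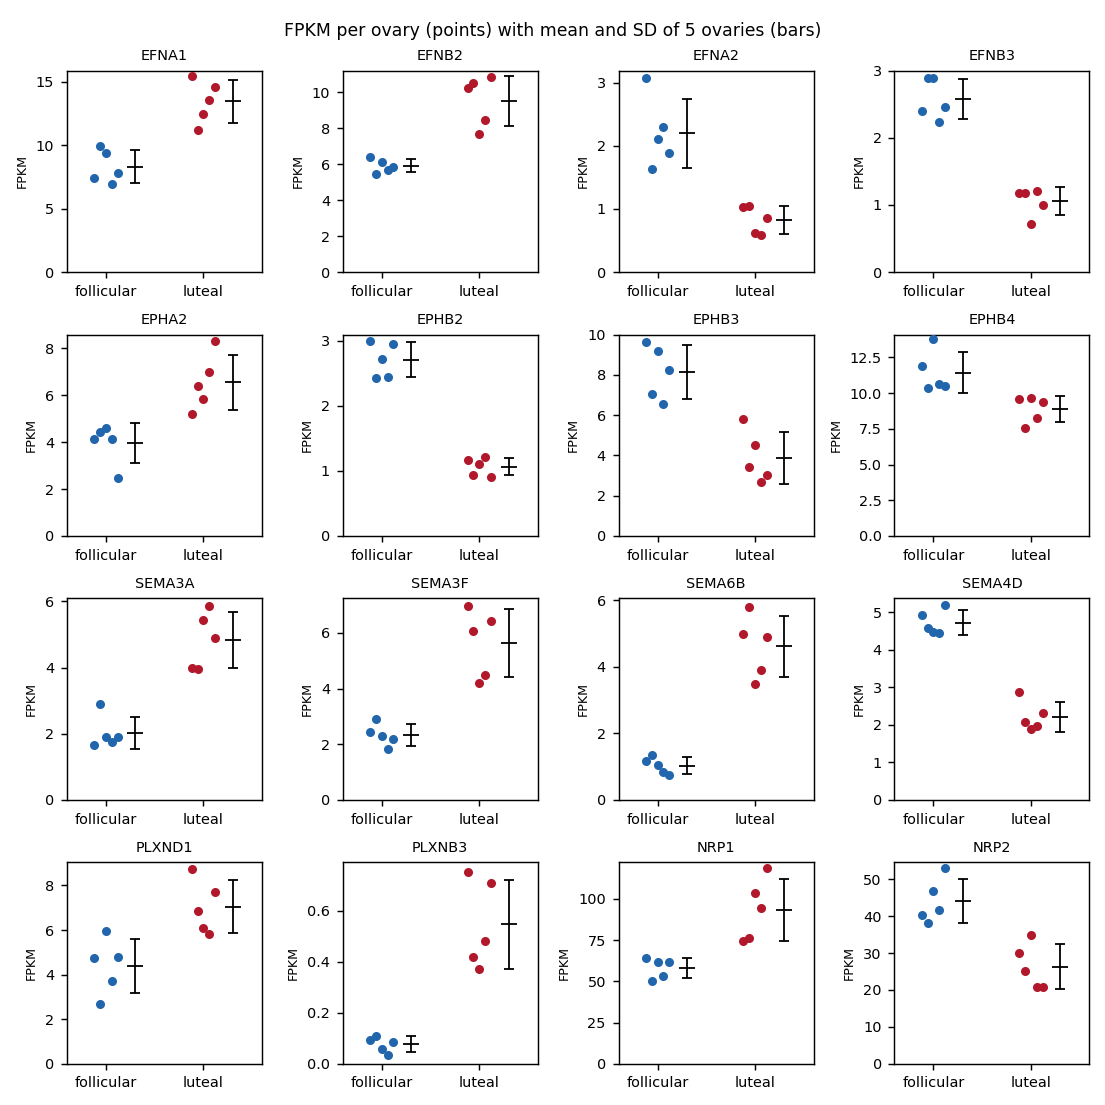
FPKM (vertical axes, each from 0) of 16 called guidance genes in each of the 5 follicular phase ovaries (blue) and 5 luteal phase ovaries (red), with bars for the mean and SD of a phase. NRP1 and NRP2 separate in opposite directions, as do EFNB2 and its receptor EPHB4, and PLXND1 is the panel in which a luteal and a follicular point overlap.

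Ratios of related genes within an ovary do not depend on how the ovaries were scaled to each other. The gene pairs were chosen with the gene results known, so the ratios are a description. The ratio of NRP1 to NRP2 was 2.48, 3.02, 2.95, 4.55 and 5.73 in luteal phase ovaries 1 to 5 and 1.58, 1.31, 1.31, 1.28 and 1.17 in follicular phase ovaries. The ratio of the ligand EFNB2 to its receptor EPHB4 was 1.07, 1.39, 0.795, 1.02 and 1.15 in luteal ovaries and 0.539, 0.530, 0.444, 0.534 and 0.555 in the follicular phase. In 4 of 5 luteal phase ovaries there was thus more EFNB2 than EPHB4 per length of transcript, and in no follicular phase ovary. The ratio of SEMA6B to SEMA6C was 1.95 to 4.46 against 0.221 to 0.673, and that of EFNB2 to EFNB3 was 6.96 to 10.8 against 1.89 to 2.66. EFNA1 was 5.37 to 6.71 times as high as EFNA4 in luteal phase ovaries and 1.81 to 3.51 times in follicular phase ovaries. The ratio of EPHA2 to EPHB3 was 0.895 to 2.76 against 0.298 to 0.630, that of SEMA3F to SEMA3B 0.564 to 0.963 against 0.219 to 0.452, and that of SEMA3A to SEMA3D 0.691 to 1.15 against 0.210 to 0.648. None of these ratios overlapped between the phases. For NRP1 to NRP2, EFNB2 to EPHB4, EFNB2 to EFNB3, EFNA1 to EFNA4 and EPHA2 to EPHB3 this was fixed by the genes' own ranges, which lay apart in opposite directions.

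**Figure D4:**
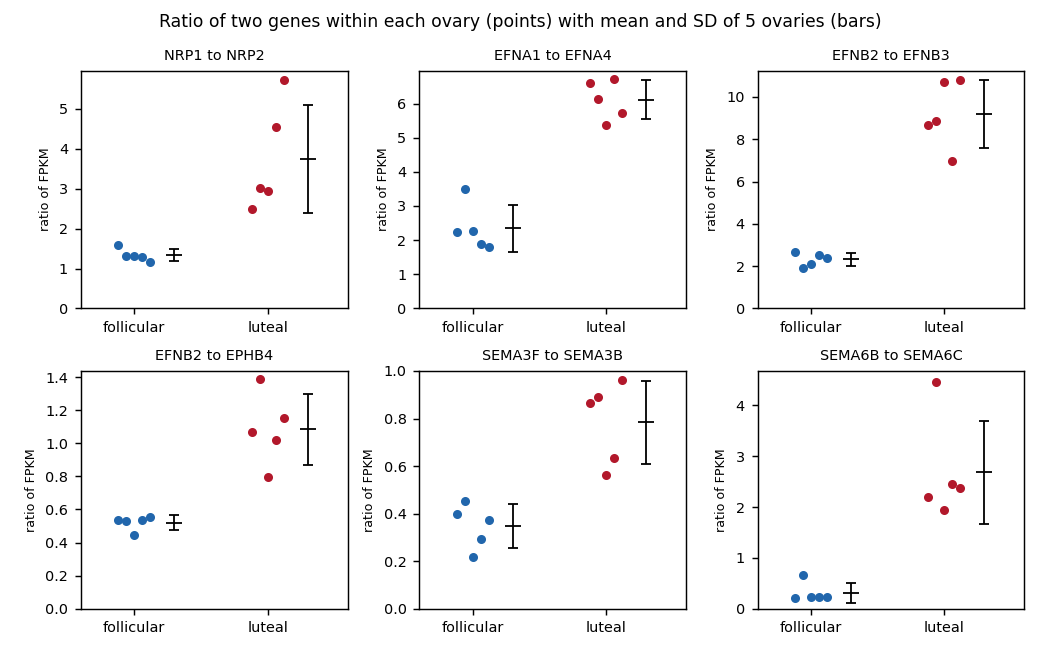
Ratio of FPKM of 2 related guidance genes within each ovary (vertical axes, each from 0) in 5 follicular (blue) and 5 luteal phase ovaries (red), with bars for the mean and SD of a phase. For every ratio shown the luteal points lie above the follicular points, for NRP1 to NRP2 between 2.48 and 5.73 against 1.17 to 1.58.

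Several members are known from endothelial cells, and endothelial markers moved in the luteal direction too. Of the 11 endothelial markers in the table, 10 were higher in the luteal phase, among them PECAM1 (log2 fold change 1.02) and CDH5 (1.41). In a comparison added after the values were seen, the level of each member higher in the luteal phase was divided by the summed endothelial markers of the same ovary. That sum gives most weight to abundant markers such as EMCN (log2 fold change 0.49), whereas the median marker changed by 1.02. Other weightings were not tried. On this scale, in FPKM per 100 FPKM of endothelial markers, SEMA6B was higher without overlap, at 1.29 to 2.38 in luteal and 0.437 to 0.854 in follicular phase ovaries, and so was PLXNB3, at 0.137 to 0.251 against 0.0213 to 0.0699. For both genes this was fixed by their own ranges and those of the marker sum. The other 10 members higher in the luteal phase overlapped between the phases. Luteal means were above follicular means for SEMA3A (1.73 against 1.23), SEMA3F (2.01 against 1.41), SEMA5B (0.522 against 0.375) and SEMA3G (1.78 against 1.65). They were below for the other 6, among them NRP1 at 24.7 to 38.5 against 31.8 to 40.4, EFNB2 at 2.84 to 4.32 against 3.27 to 4.04 and PLXND1 at 2.05 to 2.91 against 1.70 to 3.17. NRP2 and EPHB4, lower in the luteal phase while the markers were higher, were bound to be lower on this scale as well. Of 8 smooth muscle and pericyte markers, RGS5, CSPG4 and PDGFRB were higher in the luteal phase and the contractile genes ACTA2, MYH11, TAGLN, CNN1 and DES in the follicular phase. Their sum was lower in luteal phase ovaries without overlap, at 689.6 to 1107 FPKM against 1246 to 1539 FPKM. Of 8 markers of Schwann cells and nerve, 3 were higher in the luteal and 4 in the follicular phase, and their sum was higher in luteal phase ovaries without overlap, at 11.3 to 17.3 FPKM against 6.41 to 10.4 FPKM. Of the leukocyte markers 1 of 7 was called, toward the luteal phase, and 2 stromal fibroblast markers were higher in each phase. Of the surface epithelium markers tested, 1 of 4 was higher in each phase, and the 1 blood marker in the table, ALAS2, was at 0 to 0.0168 FPKM. The part of a changed cell makeup in the guidance genes was not tested.

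RNA of proteins that act beside the receptors at the membrane differed mostly in the luteal direction. Of 16 co-receptors and sheddases, 10 were higher in luteal phase ovaries (62.5% against 15.9% of all tested genes) and 2 were lower (12.5% against 27.8%). Their median log2 fold change was 0.39 against -0.14 over all genes. L1CAM, an adhesion molecule that joins NRP1 in the response to SEMA3A, was at 0.833 to 2.56 FPKM in luteal phase ovaries and 0.215 to 0.467 FPKM in follicular phase ovaries (log2 fold change 2.19, adjusted p = 0.000241). KDR, the main VEGF receptor of endothelium, was at 54.4 to 98.0 FPKM against 21.4 to 28.5 FPKM (1.59, adjusted p = 3.43e-05), and ITGA1, an integrin subunit, was at 40.4 to 60.6 FPKM against 16.4 to 18.1 FPKM (1.44, adjusted p = 1.44e-06). The proteases ADAM10 and ADAM17, which cut ephrins and semaphorins from the cell surface, each had a log2 fold change of 0.38 (adjusted p = 0.000619 and 0.00225). CHL1, a relative of L1CAM, was higher in the follicular phase (-1.26, adjusted p = 0.00215), as was ERBB2 (-0.52, adjusted p = 0.0135). FLT4 and CSPG4 of this list are also lymphatic and pericyte markers and PTPRC is also a leukocyte marker.

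Inside the cell, mediators of guidance signals were called in both directions, at a share near that of all genes. Of 41 listed mediators in the table, 40 were tested and 20 called (50% against 43.7% of all genes), 9 higher in the luteal and 11 in the follicular phase, with a median log2 fold change of -0.05. TIAM1, an exchange factor that activates RAC1, was at 9.85 to 18.6 FPKM in luteal phase ovaries and 1.86 to 2.99 FPKM in follicular phase ovaries (log2 fold change 2.49, adjusted p = 2.57e-06). GRB10, an adaptor of receptor tyrosine kinases, was at 8.98 to 18.5 FPKM against 4.36 to 5.78 FPKM (1.48, adjusted p = 9.2e-05). ARHGEF15, an exchange factor for RHOA that is also known as ephexin-5, was at 1.93 to 2.95 FPKM against 0.681 to 1.03 FPKM (1.34, adjusted p = 7.22e-05). The 3 largest differences toward the follicular phase follow. CRMP1, a mediator of SEMA3A signals, was at 0.276 to 0.437 against 0.872 to 1.41 FPKM (-1.27, adjusted p = 0.00021). MICAL3, of the family of plexin-bound oxidoreductases, was at 2.16 to 3.33 against 5.25 to 6.61 FPKM (-1.0, adjusted p = 0.000167). VAV2, an exchange factor recruited by Eph receptors, was at 4.41 to 5.33 against 7.65 to 11.4 FPKM (-0.88, adjusted p = 0.000186). Of the 6 small GTPases on the list, RHOA (log2 fold change 0.40, adjusted p = 0.000712) and RND3 (0.37, adjusted p = 0.0214) were called higher in the luteal phase. RAC1 at -0.09, CDC42 at -0.03, RND1 at 0.26 and RRAS at 0.21 were not called. The GTPases were picked from the list for their role and not by the rule of largest change.

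The remaining guidance families, the slits, netrins and repulsive guidance molecules with their receptors, were called about as often as genes in general. Of 24 genes in the table, tests were possible for 19 and 9 were called (47.4% against 43.7% of all genes), 3 higher in the luteal and 6 in the follicular phase, with a median log2 fold change of -0.27 against -0.14 over all genes. ROBO4, an endothelial receptor and also one of the endothelial markers, was at 3.88 to 7.48 FPKM in the luteal phase against 2.08 to 2.80 FPKM in the follicular phase (log2 fold change 1.05, adjusted p = 0.00101). UNC5B, a netrin receptor of endothelium, had a log2 fold change of 0.76 (adjusted p = 0.00136) and ROBO1 one of 0.46 (adjusted p = 0.0067). ROBO2, a slit receptor, was at 9.81 to 16.1 FPKM in luteal phase ovaries and 21.5 to 29.4 FPKM in follicular phase ovaries (-1.02, adjusted p = 0.000194). The netrin NTN1 was at 2.83 to 5.62 against 5.75 to 12.2 FPKM (-1.09, adjusted p = 0.00196), and UNC5D at 0.0934 to 0.329 against 0.209 to 1.31 FPKM (-1.18, adjusted p = 0.0434).

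Single transcripts gave fewer calls than genes. Of the 52 members, 22 had 1 transcript in the table and 30 had several, up to 11 for SEMA6D. Of the 129 transcripts 94 were tested and 21 were called, or 22.3% against 17.3% of all 32842 transcripts tested. Of these, 12 transcripts were higher in the luteal phase (12.8% of those tested against 7.47% of all transcripts) and the other 9 in the follicular phase (9.57% against 9.82%). The 32842 transcripts also include long noncoding RNAs and transcripts of uncertain coding potential, whereas all member transcripts are protein-coding. A share for protein-coding transcripts alone was not computed. The share of member transcripts called rested on single ovaries. It was 12.8% against 12.7% of all transcripts without luteal phase ovary 4, 13.8% against 13.2% without luteal phase ovary 5 and 13.8% against 13.5% without follicular phase ovary 1. No transcript was called against the direction of its called gene. NRP1 and NRP2 kept their direction transcript by transcript. The most abundant NRP1 transcript, with 82.3% of the gene's FPKM in the luteal and 82.6% in the follicular phase, had a log2 fold change of 0.66 (adjusted p = 0.00659), and the 2 most abundant NRP2 transcripts had -0.85 and -0.73 (adjusted p = 0.00443 and 0.0465). These NRP2 transcripts held 42.1 and 36.0% of the gene's FPKM in luteal ovaries and 44.9 and 35.0% in the follicular phase. In SEMA3F the most abundant transcript held 71.3% of the gene's FPKM in luteal ovaries and 58.2% in the follicular phase and carried a log2 fold change of 1.58 (adjusted p = 0.00308), while the next one was not called at 0.75 (adjusted p = 0.201).

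SEMA4C had the 2 transcripts that were called although their gene was not. They were XM_018054877.1, at 0.0277 to 0.459 FPKM in luteal and 0.494 to 1.08 FPKM in follicular phase ovaries (log2 fold change -1.49, adjusted p = 0.0397), and XM_018054871.1, at 0.0801 to 0.203 against 0.174 to 1.39 FPKM (-1.50, adjusted p = 0.0361). The most abundant SEMA4C transcript, with 62.4% of the gene's FPKM in the luteal and 43.4% in the follicular phase, was at 4.25 to 5.56 against 3.69 to 5.19 FPKM and was not called (0.21, adjusted p = 0.301). Within SEMA7A the FPKM were divided between 2 transcripts in a way that changed from ovary to ovary. One lay between 2.23 and 19.9 FPKM and the other between 0 and 18.0 FPKM in luteal phase ovaries, while their sum stayed at 13.1 to 25.0 FPKM. The most abundant SEMA5B transcript was likewise listed at 0 in 2 ovaries, while the gene sum lay between 0.272 and 1.79 FPKM over the 10 ovaries.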

How the data were processed

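Whole ovaries were sequenced, 5 per phase, 1 strand-specific, ribosomal RNA-depleted library per ovary. The authors used HISAT2 for alignment and StringTie for assembly, and deposited the FPKM that Cuffdiff gave for each transcript and ovary, without pooling. The genome build is not given in the sources used here. The deposited FPKM do not give the depth of each ovary, so counting error was not computed, and the number of ovaries limits the precision.

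FPKM of protein-coding transcripts were summed by symbol. Genes or transcripts with at least 0.1 FPKM in at least 5 of 10 ovaries were tested on log2(FPKM + 0.1) with limma 3.58.1 (lmFit, eBayes with trend, two-sided) in R 4.3.3, luteal minus follicular, with Benjamini-Hochberg adjustment over all features tested. The fit was tested on simulated data. Called members are given per ovary, other members by range, and of the mediators and other guidance families the 3 largest called changes in each direction. Named co-receptors, mediator GTPases, ratios and marker-scaled values were chosen after their values were seen. The members and lists were chosen with earlier results of these data known.

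CYP11A1 and CYP17A1 were read under their goat locus symbols through RefSeq synonyms, and 9 listed genes were not analysed here. Alternatives were other pseudocounts, filters, scalings, thresholds, eBayes without trend, a replicate block, the most abundant transcript, leaving out each ovary, and, added after seeing the data, leaving out transcripts listed at 0 beside 1 FPKM or more in the same phase. Tables were handled in Python 3.11.15.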

Additional observations from a re-analysis of the deposited data

Results flagged for a closer look

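In 104 groups of 5 ovaries (52 genes in 2 phases), 15 had a highest or lowest ovary whose gap to its nearest neighbour was more than 0.71 of the whole range of the group, where chance gives about 1 in 20 groups. Ovaries standing above the rest were EFNA5 in follicular phase ovary 5 at 3.13 FPKM (others 1.8 to 2.09 FPKM), EPHA5 in follicular phase ovary 5 at 0.614 FPKM (others 0.0968 to 0.202 FPKM) and EPHA6 in luteal phase ovary 1 at 0.15 FPKM (others 0.0205 to 0.0511 FPKM). Further high values were EPHA8 in follicular phase ovary 2 at 0.0549 FPKM (others 0 to 0.0142 FPKM), PLXNC1 in luteal phase ovary 3 at 5.37 FPKM (others 1.62 to 2.54 FPKM) and SEMA3A in follicular phase ovary 2 at 2.89 FPKM (others 1.67 to 1.91 FPKM). Higher than the others of their phase were also SEMA3B in follicular phase ovary 3 at 10.5 FPKM (others 5.82 to 6.41 FPKM), SEMA3E in luteal phase ovary 3 at 0.221 FPKM (others 0.0335 to 0.0699 FPKM) and SEMA5A in luteal phase ovary 3 at 8.29 FPKM (others 2.74 to 4.09 FPKM). High as well was SEMA6D in follicular phase ovary 1 at 10.6 FPKM (others 6.81 to 7.5 FPKM). Ovaries standing below the rest were EFNA3 in follicular phase ovary 1 at 0.256 FPKM (others 0.404 to 0.463 FPKM), EFNB1 in follicular phase ovary 5 at 8.3 FPKM (others 10.8 to 11.7 FPKM) and EPHA2 in follicular phase ovary 5 at 2.47 FPKM (others 4.12 to 4.59 FPKM). Also below were EPHA3 in luteal phase ovary 2 at 0.72 FPKM (others 1.59 to 1.78 FPKM) and PLXNA2 in follicular phase ovary 4 at 2.03 FPKM (others 2.46 to 2.63 FPKM). Follicular phase ovary 5 appeared 4 times and luteal phase ovary 3 appeared 3 times. Among these genes, the calls of EFNA3, EFNA5, EPHA2 and SEMA3A were kept without the ovary named, and that of EFNB1 was lost without follicular phase ovary 5 (log2 fold change 0.26, adjusted p = 0.0636, range over alternatives 0.0117 to 0.069).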

How the results depend on the processing

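Of the 27 called members, 15 were called in every alternative that tested them, among them NRP1, NRP2, EFNB2, SEMA3A, SEMA3F, SEMA6B, SEMA4D and EPHB3. PLXNB3, also among these 15, was too low for the filter of 0.5 FPKM and had no test there. The cause of the changes below was not tested. Over the settings tried, members higher in the luteal phase numbered 10 to 14 and those higher in the follicular phase 8 to 17. The count of 8 came with the most abundant transcript of each gene alone in place of the sum (15 with the sum), where called members fell from 27 to 19 and all called genes from 6711 to 4926. An adjusted p under 0.01 left 4027 genes of 6711, 2497 transcripts of 5677, 12 member transcripts of 21 and 13 intracellular mediators of 20. Leaving out 1 ovary gave 12 to 22 member transcripts, with 12 without luteal phase ovary 4 and 13 without luteal phase ovary 5 or follicular phase ovary 1, and 25 to 29 called members beside 5488 to 7008 of all genes. 7 uncalled members gained a call somewhere.

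Signs changed in 8 members, of which SEMA4F (-0.54 with the sum of its transcripts) was called. EPHA7 was at 0.08 with the median shift, 0.07 with quantile normalization, 0.09 in TPM and 0.01 without transcripts listed at 0, and at -0.22 to 0.18 with 1 ovary left out. SEMA5A was at 0.06, 0.06 and 0.07 under the same 3 scalings and at -0.26 to 0.13 with 1 ovary left out. With the most abundant transcript alone, PLXNB1 was at -0.10, SEMA4C at 0.21, SEMA4F at 0.21, SEMA6D at -0.11 and SEMA7A at -2.41. With 1 ovary left out, PLXNB1 ran from -0.01 to 0.13, SEMA4G from -0.09 to 0.23, SEMA6D from -0.02 to 0.19 and SEMA7A from -0.10 to 0.14.

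The labels do not say whether ovaries of equal replicate number belong together. The same-number correlations of deviations from the phase means were 0.03, 0.20, 0.19, 0.09 and 0.04, and in 3 of 5 numbers another number correlated better. Correlations this weak, for 5 numbers, cannot decide whether the ovaries were paired. With the replicate number as a block in the model 30 members were called, 13 higher in the luteal and 17 in the follicular phase, with 7020 genes, 4458 transcripts, 16 member transcripts, 20 mediators and 10 genes of the other guidance families. The block added calls for EPHA3 (adjusted p = 0.0158), SEMA3C (0.0217) and SEMA4C (0.01) and removed none of a member. The FPKM do not give the depth of each ovary, so the counting error of low members such as EPHA6, EPHA8, EPHA10, SEMA3E and PLXNB3 was not computed.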
